A study of Homo sapiens with 3 samples.

Results

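The MAGEA and CSAG cancer-testis genes described here are MAGEA3, MAGEA6, MAGEA10, MAGEA12, CSAG1, CSAG3 and CSAG4, together with GABRA3, a receptor gene that lies among them on the X chromosome. They are 8 of the 33423 genes listed in the series and were chosen by name, with results of these data on how their levels differ between the libraries known. Their contrast between the libraries is therefore given as a description. Single-cell RNA was measured by Drop-seq, in which a bead barcode marks the cell and a unique molecular identifier (UMI) marks the captured transcript. LNCaP–ENZ168 is the LNCaP prostate cancer line exposed to 10 µM enzalutamide, a drug that blocks androgen signalling, for 168 h. VCaP parental is the VCaP prostate cancer line exposed to 0.1% DMSO vehicle for 48 h, and VCaP–ENZ48 is the same line exposed to 10 µM enzalutamide for 48 h. The labels call both lines enzalutamide sensitive. Each group was 1 library of 1 culture, with no replicate, so no test between groups was possible. No vehicle-treated LNCaP library was analysed here. The line, the length of exposure and any difference in the preparation of the libraries therefore cannot be told apart. Against VCaP parental the drug differs as well.

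MAGE-A proteins are made in male germ cells and are silent in most adult tissues, but many tumours switch their genes on, which is why they are called cancer-testis antigens. DNA methylation of CG dinucleotides in their promoters is a well-known means by which the genes are kept silent. Several MAGE-A proteins bind RING-type ubiquitin ligases and change what these ligases mark for degradation. The best studied case is MAGE-A3 or MAGE-A6 with TRIM28, which targets the AMP-activated kinase subunit encoded by PRKAA1. The CSAG genes (chondrosarcoma-associated genes) are small genes interspersed with MAGEA genes. GABRA3 encodes the alpha-3 subunit of the GABA-A receptor, a chloride channel of neurons.

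In the annotation of the GRCh38 build (GENCODE), the 8 genes lie on chromosome X between 152133310 and 152769716, a span of 636 kb. MAGEA10 (ENSG00000124260, minus strand) is at one end and MAGEA6 (ENSG00000197172, minus strand) is at the other. GABRA3 (ENSG00000011677) covers chrX:152166234-152451315 on the minus strand, next to MAGEA10. MAGEA3 (ENSG00000221867) covers chrX:152698767-152702347 on the plus strand, and its outer end is 70950 bases from the outer end of MAGEA6, its near-copy. CSAG1 (ENSG00000198930, minus strand) and MAGEA12 (ENSG00000213401, plus strand) run head to head, with start sites 22 bases apart. The longer CSAG4 entry, annotated as a long non-coding RNA, shares 3843 bases of its span with MAGEA12 on the same strand. CSAG3 (ENSG00000268916) covers chrX:152753921-152760222 on the plus strand.

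Promoter windows of 300 bases, from 250 before to 50 after the start site, were taken from RefSeq (GRCh38.p14) and were found for 5 of the 8 genes. MAGEA10, GABRA3 and CSAG4 had no entry. The windows are shown because MAGEA3 and MAGEA6 share theirs in full, and CSAG1 and MAGEA12 share a stretch of theirs. Capitals mark the word GGATGTG, on either strand. The MAGEA3 window is chrX:152698544-152698843 on the plus strand, the MAGEA12 window is chrX:152733507-152733806 on the plus strand, the CSAG1 window is chrX:152733672-152733971 on the minus strand and the CSAG3 window is chrX:152753671-152753970 on the plus strand.
MAGEA3: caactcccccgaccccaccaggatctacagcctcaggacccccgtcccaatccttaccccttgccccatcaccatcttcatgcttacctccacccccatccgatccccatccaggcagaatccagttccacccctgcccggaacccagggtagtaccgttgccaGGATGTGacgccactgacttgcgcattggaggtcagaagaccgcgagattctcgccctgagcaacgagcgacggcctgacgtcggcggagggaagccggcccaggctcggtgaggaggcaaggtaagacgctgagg
MAGEA12: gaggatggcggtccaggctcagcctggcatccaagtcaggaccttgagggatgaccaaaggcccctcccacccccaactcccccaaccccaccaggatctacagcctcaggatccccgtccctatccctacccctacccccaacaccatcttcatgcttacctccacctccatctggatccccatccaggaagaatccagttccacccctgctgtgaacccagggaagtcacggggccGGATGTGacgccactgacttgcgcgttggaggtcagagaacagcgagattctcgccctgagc
CSAG1: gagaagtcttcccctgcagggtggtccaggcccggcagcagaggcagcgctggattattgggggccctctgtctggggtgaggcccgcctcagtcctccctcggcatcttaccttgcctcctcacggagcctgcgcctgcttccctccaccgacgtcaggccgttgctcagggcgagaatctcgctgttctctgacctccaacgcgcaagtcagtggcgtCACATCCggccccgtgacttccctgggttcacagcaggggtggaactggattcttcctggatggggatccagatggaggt
CSAG3: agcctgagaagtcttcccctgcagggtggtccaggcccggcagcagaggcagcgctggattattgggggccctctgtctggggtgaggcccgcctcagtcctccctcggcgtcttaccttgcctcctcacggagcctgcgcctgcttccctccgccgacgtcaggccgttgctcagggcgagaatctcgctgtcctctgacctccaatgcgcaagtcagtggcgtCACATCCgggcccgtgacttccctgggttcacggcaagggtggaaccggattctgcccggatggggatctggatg

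The MAGEA6 window, chrX:152769640-152769939 on the minus strand, was identical to that of MAGEA3 at all 300 bases. The MAGEA12 window matched the MAGEA3 window at 203 of 225 aligned bases, and the CSAG1 and CSAG3 windows matched each other at 283 of 295. The CSAG windows also aligned to the MAGEA3 window on the opposite strand, CSAG3 at 180 of 196 bases and CSAG1 at 180 of 201. The CSAG1 and MAGEA12 windows share 135 bases of the chromosome, chrX:152733672-152733806, read on opposite strands. The alignment with the most identical bases was on the same strand and does not show that stretch. In it MAGEA12 matched at 164 of 255 bases with CSAG1, and at 163 of 259 with CSAG3. GGATGTG was present in each of the 5 windows, against 1177 of 27305 windows of all genes (4.31%), and in all 12 MAGEA and CSAG windows of the table. The word TGACG, which follows in the MAGEA3 and MAGEA12 windows and shares the last bases, TG, with GGATGTG, was in all 5 windows, in 10 of the 12 family windows and in 25.01% of all windows. Both words were picked after the sequences had been read, and a match is a string of letters, not a shown binding site. In MAGEA12 and CSAG1 the capitals are the same 7 bases, chrX:152733745-152733751, between the start sites of the head-to-head pair. MAGEA3 and MAGEA6 had 19 CG dinucleotides in the window, CSAG3 had 20, CSAG1 had 16 and MAGEA12 had 9, where the median of all windows was 14.

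After removal of barcodes with under 500 UMIs, under 300 genes or over 25% mitochondrial UMIs, 944 LNCaP–ENZ168, 997 VCaP parental and 947 VCaP–ENZ48 cells remained. The median cell had 5389, 17817 and 11224 UMIs, so the library in which the genes were found was the shallowest. Each pair of libraries had 1 barcode in common. The 7 luminal epithelial markers were all detected in each library, summed immune, fibroblast and endothelial markers were at most 2.06 CPM, and 2 of 6 germ cell markers had a UMI in each library with a summed level of 2.15 to 2.69 CPM. ERG, the oncogene of the VCaP gene fusion, had 0 UMIs in LNCaP–ENZ168, 105.1 CPM in VCaP parental and 57.1 CPM in VCaP–ENZ48. The ERG values go with the line named on each library. CPM is the number of UMIs of a gene per 1000000 UMIs of the library. It was not divided by gene length, since a UMI is read from the 3′ end of a transcript. Intervals are 95% Poisson or Clopper-Pearson limits and cover counting error only.

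Neither VCaP library contained a UMI of any of the 8 genes, and LNCaP–ENZ168 contained all of them. The count files list a gene only if it has at least 1 UMI, so the genes have no entry in either VCaP file and were taken as 0. A count of 0 in 997 VCaP parental cells allows up to 0.301% of cells with a UMI, and 0 in 947 VCaP–ENZ48 cells allows up to 0.317%. The limit set by 3 UMIs per library was 0.154 CPM in VCaP parental and 0.210 CPM in VCaP–ENZ48. Exposure of VCaP to enzalutamide for 48 h was therefore not accompanied by a detectable level of any of the genes, and no fold can be given for that comparison.

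The antigen genes MAGEA3 and MAGEA12 were the most abundant of the 8 in LNCaP–ENZ168. MAGEA3 had 635 UMIs, or 100.6 CPM (92.9 to 108.7). MAGEA12 had 592 UMIs, or 93.8 CPM (86.4 to 101.6), and the 2 intervals overlapped. CSAG1, the neighbour that faces MAGEA12 across 22 bases, followed at 59.2 CPM (53.4 to 65.6) from 374 UMIs. MAGEA10 had 271 UMIs and 42.9 CPM (38.0 to 48.4), and MAGEA6 had 267 UMIs and 42.3 CPM (37.4 to 47.7). These last levels could not be separated either.

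The remaining genes were far lower in the same library. CSAG3 was at 9.98 CPM (7.67 to 12.8) from 63 UMIs, GABRA3 at 4.28 CPM (2.82 to 6.22) from 27 UMIs and CSAG4 at 1.11 CPM (0.446 to 2.28) from 7 UMIs. Their intervals did not overlap one another, nor those of the genes above. The 8 genes together gave 2236 UMIs, or 354 CPM (340 to 369), of which MAGEA3 made up 28.4% and MAGEA12 made up 26.5%.

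**Figure D1:**
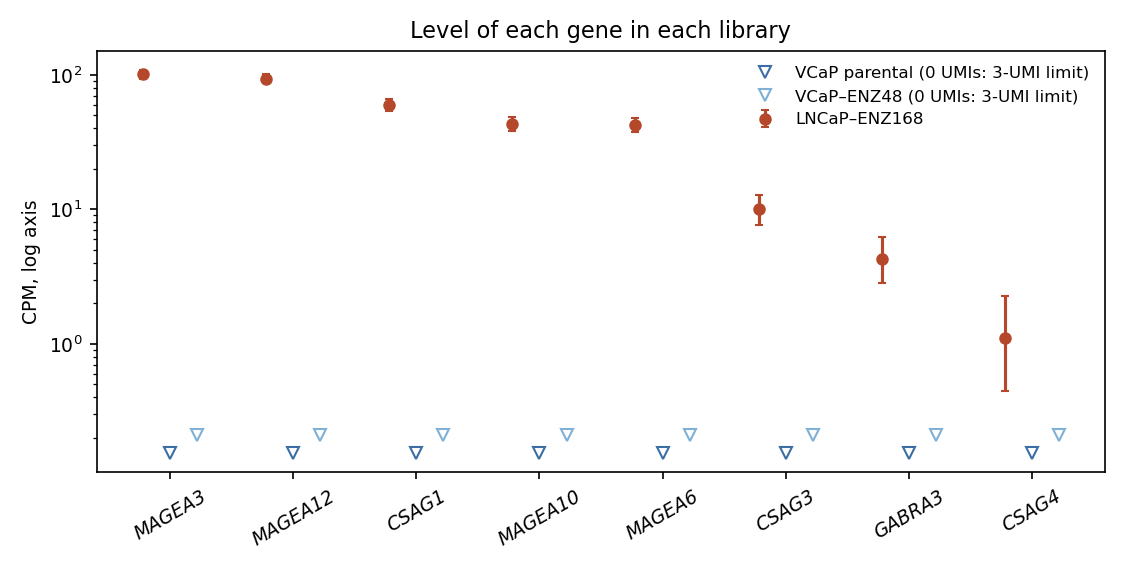
Level of each of the 8 genes in each library, in CPM on a log axis. Filled points are LNCaP–ENZ168 with 95% Poisson intervals, and open triangles mark the limit of 3 UMIs for the VCaP libraries, which had 0 UMIs of every gene. The LNCaP–ENZ168 points run from 1.11 to 100.6 CPM, and all lie above the VCaP limits of 0.154 and 0.210 CPM.

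The level of MAGEA3 in LNCaP–ENZ168 was 479-fold the limit of 3 UMIs in VCaP–ENZ48. VCaP–ENZ48 had the same drug at the same dose but a shorter exposure. The ratio to that limit was 447-fold for MAGEA12, 282-fold for CSAG1, 205-fold for MAGEA10 and 202-fold for MAGEA6. For the lower genes it was 47.6-fold (CSAG3), 20.4-fold (GABRA3) and 5.29-fold (CSAG4). Against the VCaP parental limit the ratios ran from 7.21-fold (CSAG4) to 654-fold (MAGEA3). These ratios leave out the counting error of the LNCaP–ENZ168 level, so they are not lower bounds. For CSAG4 that level ran from 0.446 to 2.28 CPM, and for GABRA3 from 2.82 to 6.22 CPM. Of the 8 genes, 5 reached a mean of 5 CPM over LNCaP–ENZ168 and VCaP–ENZ48 and were compared by the 2-fold rule, and all 5 were higher in LNCaP–ENZ168. With 0 UMIs in VCaP–ENZ48 they reached the minimum through LNCaP–ENZ168 alone, so this direction was fixed by the filter. CSAG3, at a mean of 4.99 CPM, fell just under that minimum, while GABRA3 and CSAG4 were well under it. The background was high, since 35.5% of the 11196 genes compared were at least 2-fold higher in LNCaP–ENZ168 than in VCaP–ENZ48, and 36.4% of 10621 against VCaP parental. The median log2 ratio of all compared genes was 0.64 for LNCaP–ENZ168 over VCaP–ENZ48. Against VCaP–ENZ48, 13.3% were at least 2-fold lower. Nothing about the 8 genes is read from the count of 5. Genes with 0 UMIs in both VCaP libraries were 204 of the 14858 at 1 CPM or more in LNCaP–ENZ168 (1.37%), all 8 genes among them. They were 65 of 10816 (0.601%) at 5 CPM or more, with 6 of the 8 among them, and 37 of 9019 (0.410%) at 10 CPM or more, with 5. These counts use the contrast on which the genes were chosen and are a description.

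The nearest well-expressed genes outside the MAGEA block were detected in all 3 libraries. VMA21, a factor for assembly of the vacuolar proton pump, lies before the block and had 50.1 CPM in LNCaP–ENZ168, 37.6 CPM in VCaP parental and 26.6 CPM in VCaP–ENZ48. CETN2, a centrosome protein gene just beyond MAGEA6, had 65.1, 55.1 and 46.4 CPM in the same order. NSDHL, an enzyme of cholesterol synthesis next to CETN2, had 23.8, 24.1 and 11.5 CPM. Between PRRG3 and CETN2 stood 13 listed genes, pseudogenes aside, including the 8. All 13 had UMIs in LNCaP–ENZ168, 2308 in sum, while VCaP parental had none and VCaP–ENZ48 had a single UMI, of GABRQ. A gene with 0 UMIs in both VCaP libraries is listed only through LNCaP–ENZ168, so its detection there was fixed by the listing. Annotated genes with no UMI, such as CSAG2, are not among the 13. MAGEA2 had 1 UMI in LNCaP–ENZ168, GABRQ and MAGEA4-AS1 had 2 each and GABRE had 3. The processed pseudogenes RPSAP60 and KRT8P8 in the same stretch had 0 UMIs in LNCaP–ENZ168. RPSAP60 had 1 UMI in VCaP parental and 4 in VCaP–ENZ48, and KRT8P8 had 1 and 5. Whether the VCaP cells carry this stretch of the chromosome was not tested. MAGEA1, beyond CETN2, was also at 0 in both VCaP libraries.

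**Figure D2:**
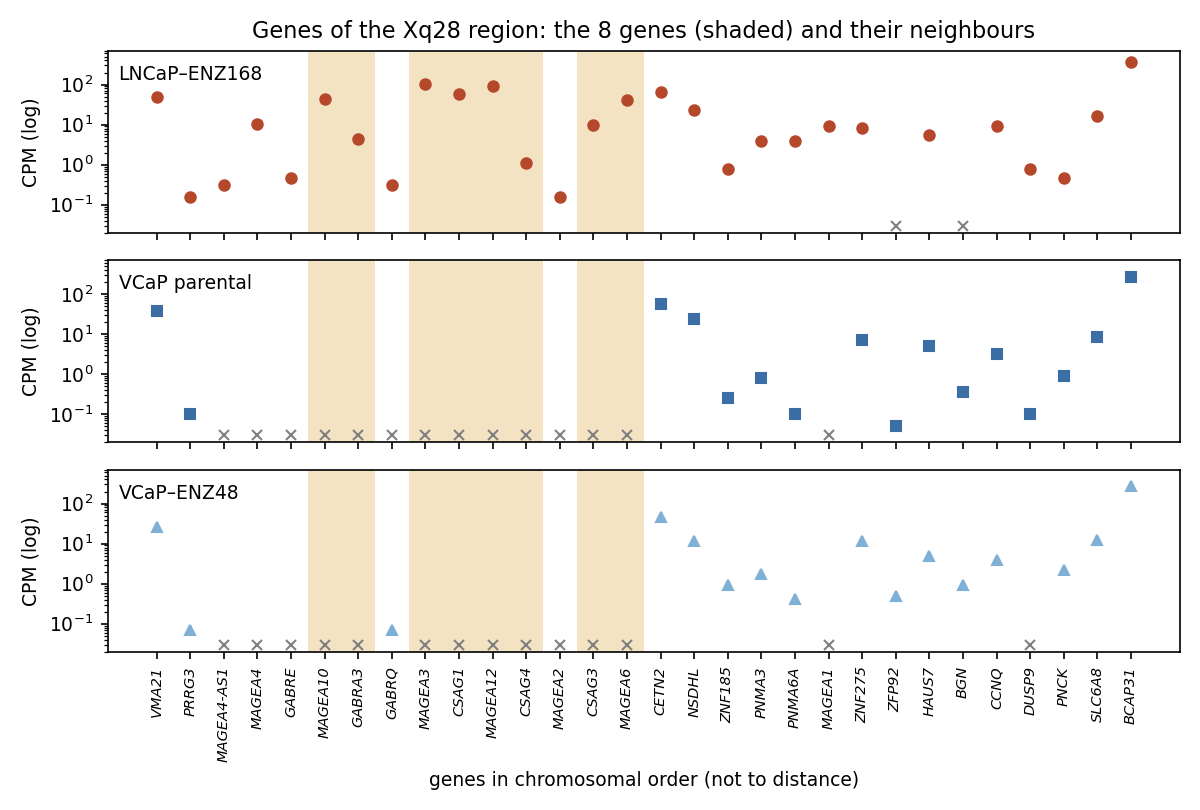
Level (CPM, log axis) of genes in chromosomal order, with the 8 genes shaded, in LNCaP–ENZ168 (top), VCaP parental (middle) and VCaP–ENZ48 (bottom). Grey crosses mark 0 UMIs. VMA21 and CETN2, on either side of the block, have points in all 3 panels, whereas the shaded genes have points in the top panel only.

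Near-identical copies limit how the UMIs can be assigned. The last 500 bases of the MAGEA3 and MAGEA6 transcripts matched at 498 positions, and 377 of the 441 windows of 60 bases in each occur in the other gene too. The division of UMIs between MAGEA3 (635) and MAGEA6 (267) is uncertain to that extent. All 441 windows of CSAG3 occur in another CSAG gene, and CSAG2, which matched CSAG3 at all 497 aligned bases, was listed in no library. CSAG4 had 104 shared windows and CSAG1 had 69. MAGEA12 had 9, MAGEA10 had 12 and GABRA3 had 0, so most of their end sequence is their own. How reads with several matches were counted is not given in the sources used here.

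Detection over the LNCaP–ENZ168 cells followed the order of the levels, except that MAGEA10 was found in fewer cells than MAGEA6. MAGEA3 had a UMI in 424 of 944 cells, 44.9% (41.7 to 48.2). MAGEA12 was seen in 415 cells (43.96%), CSAG1 in 280 (29.7%), MAGEA6 in 215 (22.8%) and MAGEA10 in 173 (18.3%). CSAG3 was found in 58 cells (6.14%), GABRA3 in 27 (2.86%) and CSAG4 in 7 (0.742%). At least 1 of the 8 genes was detected in 801 cells, 84.9% (82.4 to 87.1), and at least 2 in 501 cells, 53.1% (49.8 to 56.3). A single cell held 6 of the genes, and none held more.

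These shares depend on how deeply a cell was read. From the shallowest to the deepest quartile of cells (236 each), the share with MAGEA3 went from 31.8% to 60.6%, while its level was 100.5 CPM (80.4 to 124.1) and 95.05 CPM (84.05 to 107.1). The share with CSAG1 went from 14.4% to 48.3%. Each cell was therefore thinned at random to 2000 UMIs, which left out 1 LNCaP–ENZ168 cell, 30 VCaP–ENZ48 cells and no VCaP parental cell. In the 943 thinned cells MAGEA3 was detected in 17.3% (14.9 to 19.9), MAGEA12 in 15.3%, CSAG1 in 10.9%, MAGEA10 in 8.91% and MAGEA6 in 8.59%. CSAG3 remained in 2.23% of thinned cells, GABRA3 in 0.530% and CSAG4 in 0.212%. These are the shares of a single random draw, and a second draw gave 18.2% for MAGEA3 and 21.1% for MAGEA12, so the order of this pair turned. The share expected over all draws, computed after these values had been seen, was 18.6% for MAGEA3, 17.8% for MAGEA12, 10.7% for CSAG1, 8.07% for MAGEA10 and 7.95% for MAGEA6. At least 1 gene was seen in 49.2% of them and at least 2 in 13.3% (11.2 to 15.6). The corresponding limits for the VCaP cells, with no UMI, were 0.301% in VCaP parental and 0.327% in VCaP–ENZ48.

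**Figure D3:**
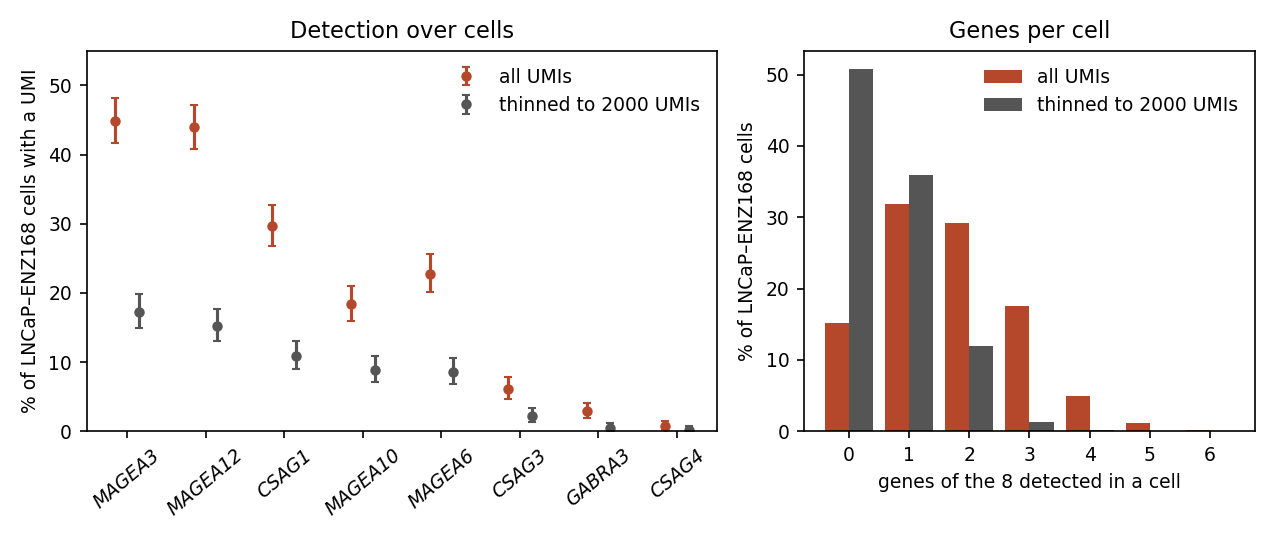
Left, percentage of LNCaP–ENZ168 cells with a UMI of each gene, with 95% Clopper-Pearson intervals, for all UMIs and after thinning to 2000 UMIs per cell. Right, percentage of cells in which 0 to 6 of the 8 genes were detected. MAGEA3 falls from 44.9% to 17.3% on thinning, and cells with 0 genes rise from 15.1% to 50.8%.

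Co-detection was compared as the share of cells with a second gene among cells with and without a first. Among the 163 thinned cells with MAGEA3, MAGEA6 was detected in 12.3% (7.66 to 18.3), against 7.82% (6.03 to 9.93) of the 780 without it. MAGEA12 was detected in 14.7% of cells with MAGEA3 and in 15.4% of those without. At full depth these shares were 49.5% and 39.4%, and shares at full depth depend on how deeply a cell was read. All thinned pairs rest on the first draw, in which MAGEA12 was at 15.3%, against 17.8% expected over all draws. For the head-to-head pair, MAGEA12 was found in 11.7% (6.17 to 19.5) of the 103 cells with CSAG1 and in 15.7% (13.3 to 18.4) of the 840 cells without. At full depth the shares of this pair were 43.6% and 44.1%. The intervals overlapped in all 15 pairs of the 6 most detected genes, and the ratio of the shares ran from 0 to 1.73 with a median of 0.957. Across the 944 cells at full depth, Pearson's r between these genes, over normalised counts in cells that share 1 library, ran from −0.07 to 0.08. No difference in co-detection was detectable in the thinned cells. At full depth, MAGEA6 was at 57.5 CPM (45.4 to 71.9) in the 135 cells with at least 2 MAGEA3 UMIs. In the 520 cells with no MAGEA3 UMI it was at 36.7 CPM (30.2 to 44.1), and these intervals did not overlap. The median depth of these sets was 7872 and 4900 UMIs. MAGEA3 and MAGEA6 are also the near-copies between which the division of UMIs is uncertain. The part of wrongly divided UMIs in this difference was not tested. The intervals of MAGEA10, MAGEA12, CSAG1 and CSAG3 overlapped between the same sets. All cells of the library are of 1 line, so no cell type that lacks the genes gives the share due to free RNA, and its part was not tested.

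MAGEA10 was spread over the cells less evenly than the others. Dispersion is given here as the spread of UMIs relative to counting noise at each cell's depth, with 1 for an even gene. MAGEA10 had a dispersion of 1.65, and 24 of 1403 genes of like level (within 25%) had a value at least as high, with a median of 1.08. MAGEA3 had 1.11, MAGEA6 had 1.07, and MAGEA12 and CSAG1 both had 1.04, close to the medians of genes of like level. CSAG3 had 0.996, GABRA3 had 0.991 and CSAG4, with only 7 UMIs, had 1.33. One cell held 11 MAGEA10 UMIs, whereas no cell held more than 6 of MAGEA3, MAGEA6, MAGEA12 or CSAG1. The 47 cells with the most MAGEA10 UMIs held 48.0% of them. For MAGEA6, at a like level, the top 47 cells held 37.1%. MAGEA10 also behaved otherwise with depth, with a share of 18.2% in the shallowest quartile of cells and 24.2% in the deepest. In the quartiles between, the share was 15.7% and 15.3%. Its level was 60.8 CPM (45.4 to 79.7) in the shallowest quartile and 39.4 CPM (32.5 to 47.4) in the deepest, with overlapping intervals.

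In the 62 cells with at least 2 MAGEA10 UMIs, MAGEA4, a family member outside the 8, was at 27.6 CPM (16.0 to 44.1), against 8.03 CPM (5.74 to 10.9) in the 771 cells with none. The median depth of the 2 sets was 6887 and 5324 UMIs. MAGEA3 was at 85.9 CPM (64.3 to 112) in those 62 cells and at 102.0 CPM (93.4 to 111) in those without MAGEA10 UMIs. MAGEA6, MAGEA12 and CSAG1 also had overlapping intervals between these sets of cells. Among 4238 genes at 50 CPM or more in either set, AL357139.2, a gene named only by its clone, differed most, with 179.9 CPM against 19.7 CPM. PURPL, a long non-coding RNA, was at 58.3 and 10.8 CPM. AL357139.2 and PURPL were the only genes past 4-fold higher. Cells with at least 2 UMIs of MAGEA3 (135 cells) or of MAGEA12 (127 cells) had none, but those sets are larger than the 62, so their ratios vary less. The 62 cells were defined by MAGEA10 itself and AL357139.2 and PURPL were ranked on the same cells, so the values describe them and test nothing.

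Since AL357139.2 was picked on these cells for its difference with MAGEA10, a split by it restates that choice for MAGEA10, and its values are given for the other genes beside it. In 96 cells with a UMI of AL357139.2 (median depth 6473.5 UMIs), MAGEA10 was at 99.3 CPM (78.3 to 124), against 35.0 CPM (30.3 to 40.3) in the 848 without (median depth 5289 UMIs). MAGEA4 was at 37.4 CPM (25.04 to 53.7) and 6.32 CPM (4.40 to 8.79). MAGEA3 was at 99.3 CPM (78.3 to 124) and 100.8 CPM (92.6 to 109), and MAGEA12 at 92.8 and 93.9 CPM. MAGEA4 itself was uneven, with a dispersion of 2.07 that 2 of 1332 genes of like level reached, as was MAGEA1 at 1.42, reached by 10 of 1266. In the 39 cells with MAGEA4, MAGEA10 was at 94.7 CPM (63.9 to 135) against 40.2 CPM (35.3 to 45.6), and MAGEA1 at 31.6 CPM (15.1 to 58.1) against 8.34 CPM (6.19 to 10.99). Between the same sets AL357139.2 was at 208.3 against 31.4 CPM and PURPL at 75.8 against 13.7 CPM.

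**Figure D4:**
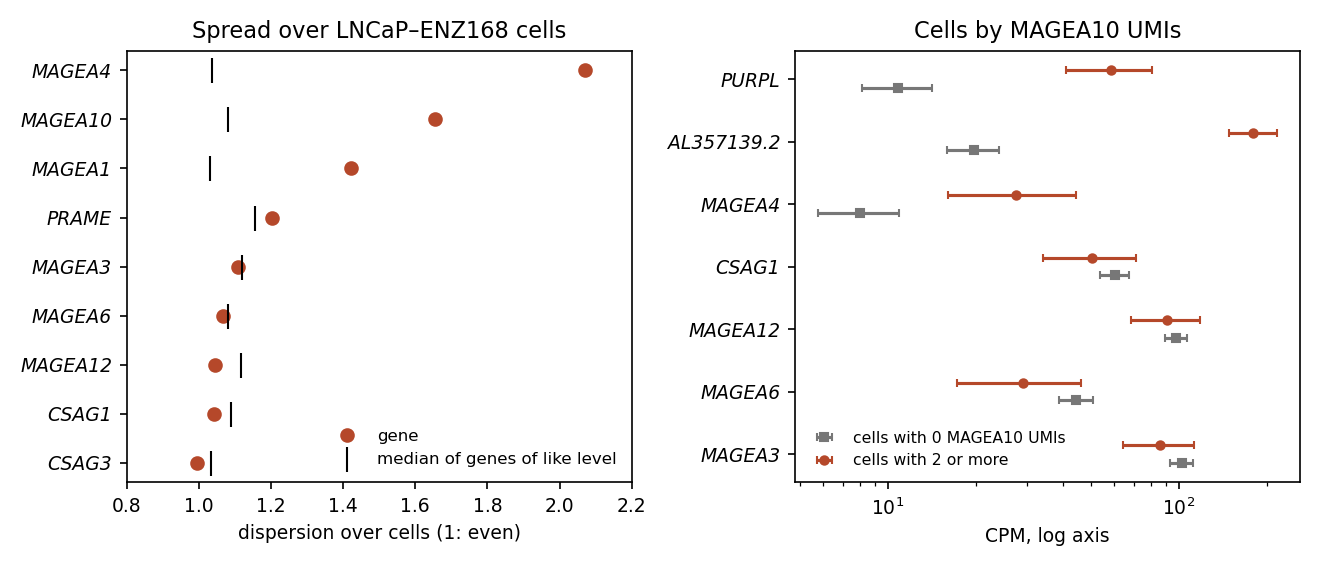
Left, dispersion of UMIs over LNCaP–ENZ168 cells (1 means even) for genes with 50 or more UMIs, with a bar at the median of genes of like level. Right, level (CPM, log axis, 95% Poisson intervals) in the 62 cells with at least 2 MAGEA10 UMIs and the 771 cells with none. MAGEA4, MAGEA10 and MAGEA1 stand right of their bars at 2.07, 1.65 and 1.42, and on the right MAGEA3, MAGEA6, MAGEA12 and CSAG1 overlap between the sets.

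The gene most like MAGEA10 over the 944 cells was AL357139.2, with a Pearson's r of 0.28, followed by ADGRG6, an adhesion receptor gene, at 0.20. For MAGEA3 the closest was IDH2, mitochondrial isocitrate dehydrogenase, at 0.21. For CSAG1 the closest was the ribosomal protein gene RPL19, at 0.21. No gene reached 0.2 for MAGEA6, MAGEA12 or CSAG3. The likeness was measured among 9684 genes in cells of 1 library and the values are weak.

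RNA quality moved with some of the levels. From the quartile of cells with the lowest to that with the highest mitochondrial share, MAGEA3 was at 122.8 CPM (107 to 140) and 80.0 CPM (65.7 to 96.5), and MAGEA10 at 58.4 CPM (47.8 to 70.6) and 32.3 CPM (23.5 to 43.3). CSAG1 was at 60.6 CPM (49.8 to 73.0) and 63.8 CPM (51.1 to 78.7). The part of the mitochondrial share in these differences was not tested. In 143 cells with over 1% S and G2M phase UMIs the 8 genes summed to 347 CPM (314 to 383), against 356 CPM (340 to 372) in the other 801. The intervals of each of the 8 genes overlapped between these sets.

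Other cancer-testis genes were listed beside the 8. Of 17 further MAGEA and CSAG entries, 8 had a UMI in LNCaP–ENZ168 and none had one in either VCaP library. MAGEA4 was at 10.1 CPM (7.81 to 12.9) and MAGEA1 at 9.50 CPM (7.25 to 12.2) in LNCaP–ENZ168, and the other 6 were at or under 1.27 CPM. Of 13 MAGEB and MAGEC genes, 2 were detected in LNCaP–ENZ168 and 1 in each VCaP library, none above 0.475 CPM. Of 79 X-linked cancer-testis genes of other families, 14 had a UMI in LNCaP–ENZ168, 3 in VCaP parental and 6 in VCaP–ENZ48. PAGE1, GAGE2A, FMR1NB and VCX were at 4.91, 4.59, 4.12 and 3.96 CPM in LNCaP–ENZ168 and at 0 in both VCaP libraries. SSX3, encoding a germ-line transcriptional repressor, went the other way, with 0 UMIs in LNCaP–ENZ168, 6.92 CPM in VCaP parental and 9.02 CPM in VCaP–ENZ48.

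Germ-line genes on the autosomes were detected in both lines. Of 30 such genes, 14, 15 and 17 had a UMI in the LNCaP–ENZ168, the VCaP parental and the VCaP–ENZ48 library. Of the 4 compared between LNCaP–ENZ168 and VCaP–ENZ48, 3 were at least 2-fold higher in LNCaP–ENZ168 and 1 was lower, where all genes had 35.5% and 13.3%. Each of the 4 reached the minimum mean of 5 CPM only through the library in which it was higher. Nothing about this list is read from these counts. PRAME, a tumour antigen, was at 158.4 CPM in LNCaP–ENZ168, 1.33 CPM in VCaP parental and 2.31 CPM in VCaP–ENZ48. The helicase gene DDX43 was at 22.5, 0 and 0 CPM, and BRDT, a testis bromodomain protein, at 16.9, 0 and 0.280 CPM. TDRD1, a tudor protein of the piRNA pathway, was at 0.475 CPM in LNCaP–ENZ168 and at 160.7 and 142.7 CPM in the VCaP libraries.

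The widely expressed MAGE genes are active outside the testis. Of 7 compared between LNCaP–ENZ168 and VCaP–ENZ48, 3 were at least 2-fold higher and 2 lower in LNCaP–ENZ168, beside 35.5% and 13.3% of all genes. MAGED1 was at 158.7, 28.1 and 33.6 CPM in the LNCaP–ENZ168, the VCaP parental and the VCaP–ENZ48 library, and MAGEF1 at 178.0, 19.5 and 19.2 CPM. MAGED2 was at 102.6, 155.7 and 304 CPM. MAGEH1 had 0 UMIs in LNCaP–ENZ168 and 71.3 and 55.03 CPM in the VCaP libraries. It reached the minimum level through VCaP–ENZ48 alone, so its direction was fixed by the filter.

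Among the partners of MAGE-A proteins, TRIM28 was at 24.1 CPM in LNCaP–ENZ168, 13.1 CPM in VCaP parental and 24.5 CPM in VCaP–ENZ48. PRKAA1 was at 99.5, 46.8 and 46.9 CPM in the same order. TRIM31, another ubiquitin ligase, had 0 UMIs in LNCaP–ENZ168 and was at 0.154 and 0.0699 CPM in the VCaP libraries. Of 18 other GABA-A receptor subunit genes, 6 had a UMI in LNCaP–ENZ168, 6 in VCaP parental and 7 in VCaP–ENZ48. GABRE and GABRQ, the subunit genes nearest to GABRA3, were at 0.475 and 0.317 CPM in LNCaP–ENZ168.

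DNA methylation and silencing factors were the last list compared. Of 21 compared between LNCaP–ENZ168 and VCaP–ENZ48, 10 were at least 2-fold higher in LNCaP–ENZ168 and 0 lower, beside 35.5% and 13.3% of all genes, with a median log2 ratio of 0.83 where all genes had 0.64. The 10 included both writers and readers or erasers, such as the maintenance methyltransferase DNMT1 (121.6 and 49.6 CPM), the demethylase TET2 (31.5 and 9.23 CPM) and the histone methyltransferase SETDB1 (31.2 and 14.5 CPM). With TMM or median-of-ratios scaling 2 of the 21 were higher, TET2 and MORC2, and 0 lower. Against VCaP parental 5 of 21 were higher and 1 lower, beside 36.4% and 11.2% of all genes. With TMM 1 of 22 was higher and 7 lower, so that the balance of calls depended on the scaling. The shares of all genes under TMM and median-of-ratios scaling are not given here, so nothing about the list is read from those counts. Between VCaP–ENZ48 and VCaP parental 3 of 21 were lower and 0 higher. Of all 10049 genes compared, 5.95% were at least 2-fold lower and 10.5% higher. DNMT1 went from 155.4 CPM in VCaP parental to 49.6 CPM in VCaP–ENZ48, the remodeller HELLS from 154.1 to 31.3 CPM and UHRF1, which guides DNMT1 to DNA, from 8.30 to 1.89 CPM. The 8 MAGEA, CSAG and GABRA3 genes had 0 UMIs in both of these libraries.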

How the data were processed

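Drop-seq libraries of LNCaP–ENZ168, VCaP parental and VCaP–ENZ48 (1 each) were deposited as UMI counts of genes by cell barcode, without normalization. According to the methods, the authors made these counts with the Drop-seq tools pipeline at default settings and an expected 1000 cells per sample, with STAR and Picard, the GRCh38 genome and Gencode annotation. No cell filter for these files is given in the sources used here, and every file held 1000 barcodes. Barcodes ending in N numbered 212, 860 and 869 in the order above. Depth was 6313283, 19515202 and 14301287 UMIs in the cells kept.

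Cells were kept at 500 or more UMIs, 300 or more genes and at most 25% mitochondrial UMIs. No doublet caller was run, and barcodes above 3 times the median depth were left out as an alternative. Counts were summed per library and given as CPM. Ratios are log2 of CPM + 1, and genes with a mean of 5 CPM over a pair were compared, with 2-fold as the call. No p-value was computed, since each group had 1 library. Folds against a count of 0 use a floor of 3 UMIs per library. Thinning was to 2000 UMIs by hypergeometric draws with a fixed seed. The ratio, spread and thinning steps were tested on simulated data. Genes most alike were named by Pearson's r of at least 0.2 over LNCaP–ENZ168 cells, among genes in at least 5% of cells, because the VCaP cells had no UMI of the genes and likeness over all libraries could not be had. Alternatives were other cell filters, weights, scalings (TMM by edgeR 4.0.16, median of ratios), pseudocounts, minimum levels and thinning depths. The 8 genes and all lists were chosen with earlier results of these data known. Python 3.11.15, numpy 2.4.6, pandas 2.3.3, scipy 1.17.1 and R 4.3.3 were used. Gene positions and transcripts came from GENCODE and promoter windows from RefSeq, both on GRCh38. Some genes of the lists are not reported here.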

Additional observations from a re-analysis of the deposited data

How the results depend on the processing

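The VCaP libraries held 0 UMIs of the 8 genes under every cell filter, also with all barcodes kept. Scaling, pseudocount and thinning cannot move a count of 0 and give no value. The log2 ratio (CPM + 1) of the summed genes, LNCaP–ENZ168 over VCaP–ENZ48, was 8.47, and became 8.02 with TMM, 8.14 with median-of-ratios scaling, 8.78 without mitochondrial and ribosomal protein genes, 7.99 without MAGEA3, and 11.8 or 5.19 with a pseudocount of 0.1 or 10, since it is taken against 0. TMM moved the median ratio of all genes in that pair by −0.53 and median-of-ratios by −0.58. The share of thinned LNCaP–ENZ168 cells with at least 2 of the genes, 13.3%, was 3.71% at 1000 UMIs, 34.3% at 4000 UMIs, 53.1% with no thinning and 7.64% without MAGEA3. Of the 8 genes 5 passed 2-fold, and 8 with no minimum level. Over the gene lists 21 genes passed 2-fold in either direction, 12 with TMM, 13 with median-of-ratios scaling, 13 with a pseudocount of 10 and 33 with no minimum level. The other 47 of 62 recomputed values stayed within counting error or 1.5 times the count. Those 47 include the VCaP counts of 0 and the counts of the 8 genes past 2-fold, whose direction the filter fixed. The filter of at least 1000 UMIs gave the main values again. The tally is therefore a description and no measure of robustness. Of 64 recomputed shares of thinned cells at the same depth 8 left the counting interval, 5 of them of MAGEA12 (17.8% to 21.1%, against 15.3%), and CSAG3 fell from 2.23% to 1.10% with all barcodes. At other depths 21 of 24 did. The dispersion of MAGEA10 was 1.59 to 1.71 under 6 cell filters, an alternative added once the values had been seen. No paired analysis was possible because there is only 1 library in every group. Leaving out a replicate was not possible for the same reason. Depth limits the VCaP comparison to levels above 0.154 and 0.210 CPM, and CSAG4 and GABRA3 rest on 7 and 27 UMIs.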
